A study of Mus musculus with 9 samples.

Results

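Kel and Fech were each read by a single feature on the arrays, feature 1252 for Kel and feature 2332 for Fech, chosen because the platform annotation names that gene alone once symbols are updated by gene ID. They are 2 of 11552 features, and both had a value on all 9 arrays. The arrays compared RNA of castrated and sham-operated C57BL/6 mice, an inbred strain, in specimens from femur, tibia and humerus. All mice had been castrated or sham-operated at 7 weeks of age. There were 3 groups of 3 arrays, old marrow (mice of 59 weeks, specimens labelled bone marrow), young bone (17 weeks) and young marrow (17 weeks), and each array held 1 castrated and 1 sham-operated mouse. The design text speaks of taking the marrow apart from the bone for young mice only, so it is not stated if bone is part of the old specimens. Nor is it stated whether young bone and young marrow come from the same animals. The castrated mouse was labelled with Cy5 on 6 arrays and with Cy3 on 3 arrays, which were old marrow replicate 2, young bone replicate 3 and young marrow replicate 2.

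Red cells mature in the marrow, where erythroid precursors take up iron, make heme and globin and assemble a red cell membrane. Androgens are known to stimulate red cell production, and castration removes their main source in males. Kel encodes the Kell blood group glycoprotein of the red cell membrane, a zinc endopeptidase of the neprilysin family that is linked to the XK protein and, in human, cleaves big endothelin-3. Fech encodes ferrochelatase, the mitochondrial iron-sulfur enzyme that inserts iron into protoporphyrin at the last step of heme synthesis. Fech is used by all cells that make heme and is strongly expressed in maturing erythroid cells, while Kel is a more restricted erythroid marker.

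The sequence around the start of Kel is shown because erythroid genes are often bound by GATA factors, whose motif it can be searched for. It runs from 250 bases before to 50 bases after the annotated start on chr6:41704276-41704575, minus strand, in the RefSeq annotation of GRCm38.p6, and this promoter table matched 1 of the 2 genes, leaving Fech unmatched. Capitals mark matches to AGATAA or TGATAA, searched on both strands.
Kel: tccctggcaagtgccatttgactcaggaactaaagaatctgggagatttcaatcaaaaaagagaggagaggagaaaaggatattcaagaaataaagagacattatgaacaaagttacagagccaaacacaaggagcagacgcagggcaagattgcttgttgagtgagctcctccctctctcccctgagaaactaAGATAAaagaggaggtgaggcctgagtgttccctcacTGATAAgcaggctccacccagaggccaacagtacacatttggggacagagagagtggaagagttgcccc
The window held 2 matches, AGATAA beginning 56 bases before the start and TGATAA beginning 19 bases before it, which do not overlap. Of 32851 promoters of the same length, 18.6% held at least 1 match and 3.26% held at least 2. A match describes letters and is not evidence of binding in these mice.

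The deposited values are log ratios without channel intensities, read here as log2. They give no expression level, so Kel and Fech cannot be placed against each other or against background. Old marrow replicate 1 was the most spread out array, with an SD of 0.454 over its features against 0.192 to 0.294 on the other 8, and the array medians lay between -0.11 and 0.01. No array duplicated another. The direction of the ratio is likely castrated over sham, since every array is described as a castrated specimen set against a sham one, but the sources used here do not state it. If the ratio were Cy5 over Cy3 instead, the sign of the 3 arrays with the castrated mouse in Cy3 would turn, which is called the channel reading here. The 6 arrays with the castrated mouse in Cy5 read the same under both. As deposited, the median log2 ratio of B lymphocyte marker features was positive on every array, between 0.395 and 0.82. That of granulocyte marker features was negative on every array, between -0.675 and -0.11. These signs did not turn with the dye layout, and the channel reading would turn them on the 3 arrays with the castrated mouse in Cy3. The direction itself was not tested.

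Whether castration moved Kel was asked first in each group. Kel had log2 ratios of 0.02, 0.12 and -0.47 in old marrow replicates 1 to 3. In young bone replicates 1 to 3 its log2 ratios were -0.17, -0.36 and 0.28. In young marrow replicates 1 to 3 they were -0.04, 0.39 and -0.53. Every group held values on both sides of 0, and the highest value of each group came from its array with the castrated mouse in Cy3. The mean log2 ratio of Kel was -0.11 ± 0.32 in old marrow, -0.083 ± 0.33 in young bone and -0.060 ± 0.46 in young marrow (SD, n = 3 each). In that order, lowest to highest, neighbouring groups differed by far less than their spread.

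On 2 arrays Kel was close to the bottom of the whole array. Only 1.3% of features lay below Kel on old marrow replicate 3 and 1.4% on young marrow replicate 3, both with the castrated mouse in Cy5. On young marrow replicate 2, with the dyes the other way round, 96.5% of features lay below it as deposited, and 3.1% with the sign turned (Kel at -0.39), as in the channel reading. On the remaining arrays between 7.8% and 86.0% of features lay below Kel as deposited.

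**Figure D1:**
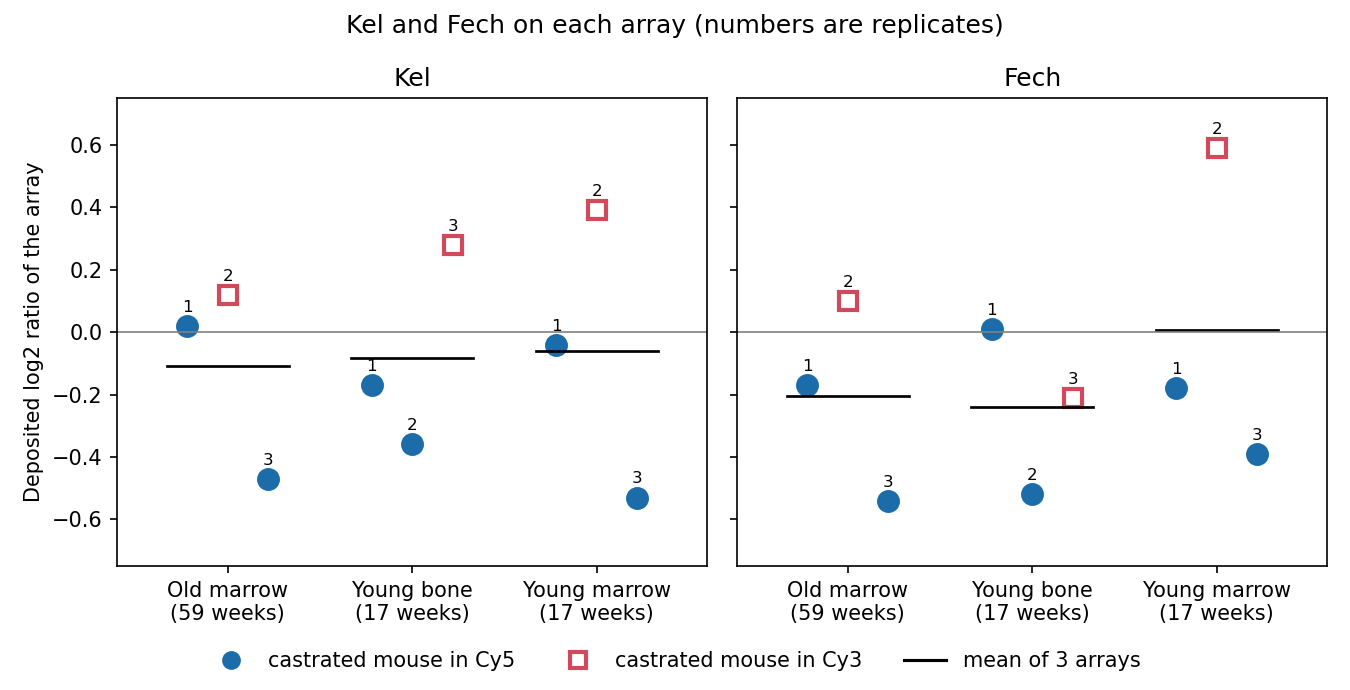
Deposited log2 ratio (vertical axis) of Kel (left) and Fech (right) on each of the 9 arrays, by group, with filled circles for arrays with the castrated mouse in Cy5, open squares for arrays with it in Cy3, replicate numbers beside the points and a bar at the mean of 3 arrays. All 3 squares of Kel lie above all 6 of its circles, while the young bone square of Fech, at -0.21, lies among the circles.

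Fech followed a similar path over most arrays. It differed from Kel in sign on old marrow replicate 1 and on young bone replicates 1 and 3. It had log2 ratios of -0.17, 0.10 and -0.54 in old marrow replicates 1 to 3, and of 0.01, -0.52 and -0.21 in young bone replicates 1 to 3. In young marrow replicates 1 to 3 its log2 ratios were -0.18, 0.59 and -0.39. The mean log2 ratio of Fech was -0.20 ± 0.32 in old marrow, -0.24 ± 0.27 in young bone and 0.0067 ± 0.52 in young marrow (SD, n = 3 each). Young bone was lowest, old marrow next and young marrow highest, and no neighbours in this order stood apart beyond their spread.

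Fech lay near the ends of the array on several hybridisations. On old marrow replicate 3 only 0.7% of features lay below Fech, on young bone replicate 2 this was 2.5% and on young marrow replicate 3 it was 5.2%. On young marrow replicate 2, 99.2% of features lay below it as deposited, and 0.8% with the sign turned (Fech at -0.59). The genes lay farthest apart on young bone replicate 3, with the castrated mouse in Cy3. As deposited, Fech was at -0.21 there (18.4% of features lower) and Kel at 0.28 (86.0% of features lower). Turned, Fech was at 0.21 there (80.5% of features lower) and Kel at -0.28 (13.3% of features lower).

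In the plot by array the sign of the ratio went with the dye layout on most arrays, though not on all for either gene. Kel was below 0 on 5 of 6 arrays with the castrated mouse in Cy5, averaging -0.26 ± 0.23 on the log2 scale (SD, n = 6), and above 0 on 3 of 3 arrays with it in Cy3, averaging 0.26 ± 0.14 (SD, n = 3). The first of these was common, since 21.2% of the 7544 features with a value on all arrays were below 0 on at least 5 of the 6 arrays of the Cy5 layout. These layouts did not overlap for Kel, with 0.02 the highest value in the Cy5 layout and 0.12 the lowest in the Cy3 layout. Among the same 7544 features 2.05% had every array of the Cy3 layout above every array of the Cy5 layout, and 0.848% had the opposite. Kel averaged 0.52 lower in the Cy5 layout (an exact permutation of the layouts over 9 arrays, two-sided, gave p = 0.0238, and p = 0.0833 after Benjamini-Hochberg adjustment over the 8 exact tests of Kel and Fech). The layouts were moved freely over the arrays, with 0.0119 the smallest p possible. That each group had its own array of the Cy3 layout was not kept.

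Fech was below 0 on 5 of 6 arrays with the castrated mouse in Cy5, averaging -0.30 ± 0.22 (SD, n = 6), and above 0 on 2 of 3 arrays with it in Cy3, averaging 0.16 ± 0.40 (SD, n = 3). Its layouts overlapped, because young bone replicate 3 at -0.21 lay below 0.01, the highest value of the Cy5 layout. The layouts differed by -0.46 for Fech, and the same exact permutation gave p = 0.0595, adjusted 0.0833.

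In the limma fit of all 9 arrays, with the ratio read as castrated over sham and a common dye term, no castration effect was detected for either gene. Kel averaged 0.0025 over the 3 groups (SE 0.076, 95% interval -0.17 to 0.17, limma adjusted p = 0.995), and 97.9% of the features tested had a smaller p. Fech averaged -0.069 (SE 0.088, 95% interval -0.26 to 0.13, limma adjusted p = 0.809). Of 8885 features tested, 4.04% passed an adjusted p of 0.05 in this average, and neither Kel nor Fech was among them. Per group the log2 effect on Kel was -0.023 in old marrow, 0.0036 in young bone and 0.027 in young marrow (SE 0.13 each), and that on Fech was -0.13 in old marrow, -0.16 in young bone and 0.083 in young marrow (SE 0.15 each). Neither gene passed in a group, against 0.732% of features that passed in old marrow, 0.259% in young bone and 0.844% in young marrow.

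The dye term of the same fit carried what the layouts showed. It was -0.26 for Kel (SE 0.076, 95% interval -0.43 to -0.092, limma adjusted p = 0.738) and -0.23 for Fech (SE 0.088, 95% interval -0.42 to -0.034, limma adjusted p = 0.738). Only 0.439% of features had a smaller p than Kel in this term and 3.07% had a smaller p than Fech, but 0.0% of features passed the adjusted threshold (6.56% had an unadjusted p under 0.05).

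Under the channel reading the dye term and the castration effect change places. Castrated over sham then averaged -0.26 for Kel (SE 0.078, 95% interval -0.43 to -0.088) and -0.23 for Fech (SE 0.090, 95% interval -0.43 to -0.028), each with a limma adjusted p = 0.893. No feature passed the adjusted threshold in the average under this reading (percent called 0.0, with 4.7% at an unadjusted p under 0.05), while 231 passed in its dye term. With the ratio read as castrated over sham, 359 features passed in the average and 0 in the dye term. Channel-read Kel was below 0 on 8 of 9 arrays, averaging -0.26 ± 0.19 (SD, n = 9), and channel-read Fech on 7 of 9, averaging -0.25 ± 0.28. Of the 7544 features with all values, 3.41% were below 0 on at least 8 of 9 arrays under this reading. An exact sign-flip test over the 9 arrays, two-sided, gave p = 0.00781 for channel-read Kel (adjusted 0.0625) and p = 0.0391 for channel-read Fech (adjusted 0.0833), where 0.00391 is the smallest p possible. With the values as deposited, the same exact test gave p = 0.445 for Kel, mean -0.084, and p = 0.242 for Fech, mean -0.15.

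The 6 arrays of the Cy5 layout do not depend on the reading, though in them castration and dye cannot be told apart. Fitted alone with limma, they gave -0.26 for Kel (SE 0.097, 95% interval -0.48 to -0.034, limma adjusted p = 0.252) and -0.30 for Fech (SE 0.095, 95% interval -0.52 to -0.081, limma adjusted p = 0.189). Neither passed, against 0.968% of features that did, and 11.4% of features had a smaller p than Kel and 6.98% a smaller p than Fech. The exact sign-flip test over these 6 arrays, two-sided, gave p = 0.0625 for each gene, where 0.0312 is the smallest p possible.

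**Figure D2:**
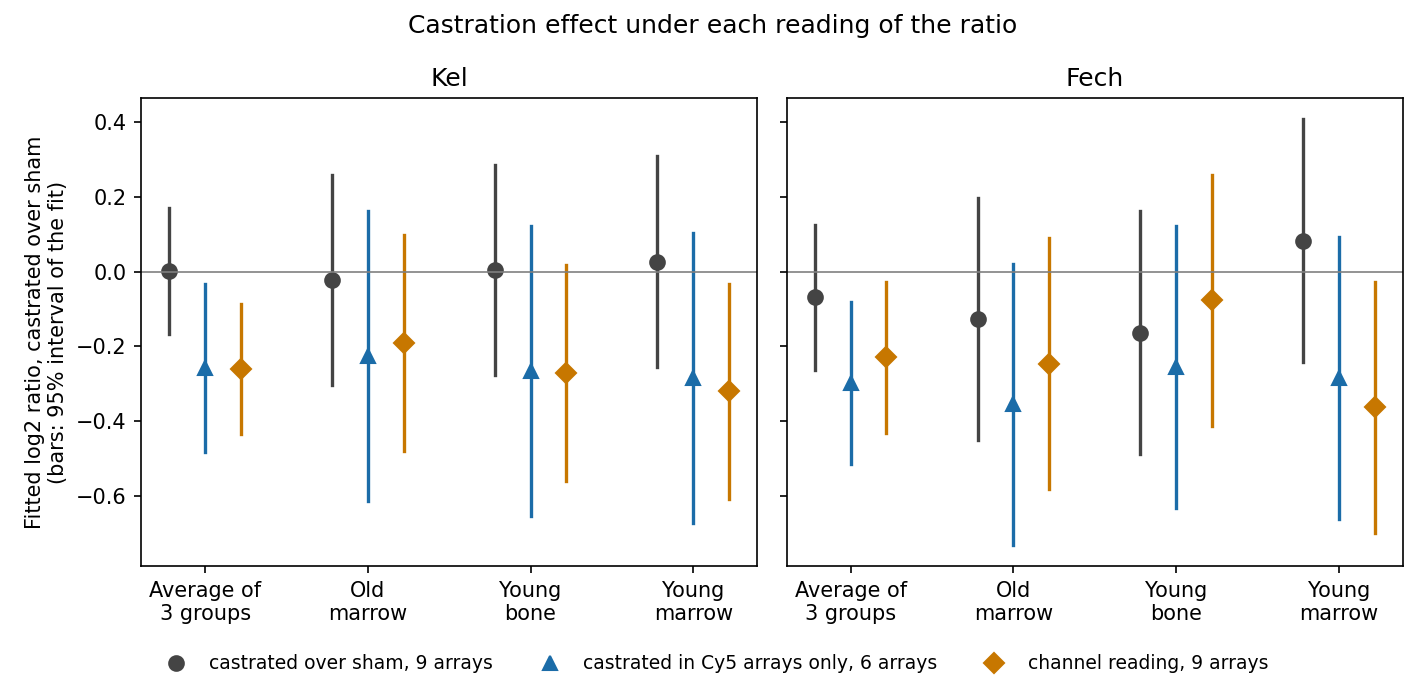
Fitted log2 ratio of castrated over sham (vertical axis) with its 95% interval (bars) for Kel (left) and Fech (right), as the average of the 3 groups and per group, with circles for the ratio as castrated over sham on 9 arrays, triangles for the 6 arrays with the castrated mouse in Cy5 and diamonds for the channel reading of 9 arrays. The circles of Kel sit within 0.03 of 0, and its triangles and diamonds between -0.32 and -0.19.

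Tissue and age were compared through differences between groups in the same limma fit. Read as castrated over sham, the difference in the effect on Kel was -0.027 for old marrow minus young bone (SE 0.18, 95% interval -0.42 to 0.36) and -0.050 for old marrow minus young marrow (SE 0.18, 95% interval -0.44 to 0.34). For young bone minus young marrow it was -0.023 (SE 0.18, 95% interval -0.41 to 0.37). None of these passed the adjusted threshold, which 0.0113% of features passed for old marrow minus young bone and 0.0% for old marrow minus young marrow and for young bone minus young marrow (14.5% and 5.12% had an unadjusted p under 0.05). For Fech the fit gave young bone minus young marrow at -0.25 (SE 0.20, 95% interval -0.70 to 0.20, limma adjusted p = 0.957) and old marrow minus young marrow at -0.21 (SE 0.20, 95% interval -0.66 to 0.24, limma adjusted p = 0.615). Old marrow minus young bone was 0.037 for Fech (SE 0.20, 95% interval -0.41 to 0.49).

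The order of the groups depended on the reading. Under the channel reading Fech was 0.29 higher in young bone than in young marrow (SE 0.21, 95% interval -0.18 to 0.75), opposite in sign to the value above, and Kel was 0.13 higher in old marrow than in young marrow (SE 0.18, 95% interval -0.27 to 0.53). On the arrays of the Cy5 layout alone, which number 2 per group, Kel averaged -0.23 in old marrow, -0.27 in young bone and -0.29 in young marrow, and Fech averaged -0.36, -0.26 and -0.29 in these groups. All 6 means were below 0.

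The pair of genes was then compared from array to array. Over the 9 arrays as deposited, Pearson's r was 0.79 (exact permutation p = 0.00745, adjusted 0.0596) and Spearman's rho was 0.73 (exact permutation p = 0.0311, adjusted 0.124). Values were adjusted over the r and rho of 4 relations. Without young marrow replicates 2 and 3, the arrays farthest from the median of Kel, r was 0.68 (n = 7, exact permutation p = 0.0889) and rho 0.54 (exact permutation p = 0.236). Within the 6 arrays of the Cy5 layout r was 0.75 (exact permutation p = 0.115), and the 3 arrays of the Cy3 layout were too few to give a value. Channel-read, r was 0.57 (n = 9, exact permutation p = 0.109). Among the other 7543 features with all values, 1.96% had a higher r with Kel than Fech had, and 0.994% had a higher r with Fech than Kel had, as deposited. Channel-read, these shares were 4.36% for Kel and 3.99% for Fech.

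**Figure D3:**
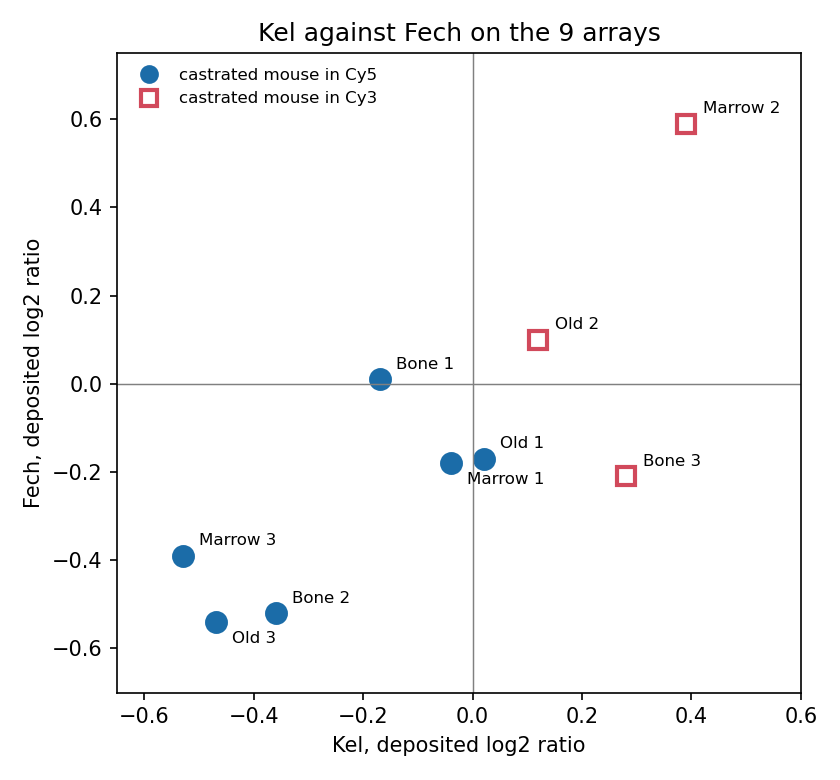
Deposited log2 ratio of Fech (vertical axis) against that of Kel (horizontal axis), 1 point per array, with filled circles for the castrated mouse in Cy5 and open squares for it in Cy3. Old marrow 3, young bone 2 and young marrow 3 lie together at the lower left and young marrow 2 at the upper right. Young bone 3 and old marrow 1 have Kel above 0 and Fech below 0, and young bone 1 has the opposite signs.

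The features whose pattern over the 9 arrays was most like Kel were ranked by Pearson's r of the deposited ratios. The 5 highest were both features of Ctse (cathepsin E, an aspartic protease) at r = 0.976 and 0.956, Mki67 (a marker of dividing cells) at 0.961, Huwe1 (a ubiquitin ligase) at 0.942 and Smpd4 (a neutral sphingomyelinase) at 0.941. Feature 5556 of Ctse had log2 ratios of 0.13, 0.04 and -0.35 in old marrow, -0.05, -0.33 and 0.20 in young bone and -0.05, 0.33 and -0.45 in young marrow. It averaged -0.18 in the Cy5 layout and 0.19 in the Cy3 layout, and Mki67 averaged -0.30 and 0.42. With the sign of the Cy3 layout turned, as in the channel reading, the r with Kel was 0.975 and 0.948 for Ctse, that of Mki67 was 0.861 and that of Huwe1 was 0.482. The features most like Fech were feature 10270 of Cd24a (heat-stable antigen, found on erythroid and B cell precursors) at r = 0.963, Cul4a (a scaffold of ubiquitin ligases) at 0.961, Hnrnpab (an RNA-binding protein) at 0.938 and 2 features of Nova1 (a splicing regulator of neurons) at 0.936 and 0.922. The other feature of Cd24a, 3996, had r of 0.42 with Fech and 0.25 with Kel, and the other feature of Hnrnpab had r of 0.44 with Fech. Further features of the genes most like Kel had r with it of 0.92 for Mki67 and of 0.86, 0.51 and -0.020 for Huwe1. So turned, the r of feature 10270 of Cd24a with Fech was 0.966 and that of Cul4a 0.947. These are the highest of 7543 correlations with each gene, over 9 arrays that share groups and dye layouts, and they carry no test. Features of the same gene, such as those of Ctse and of Nova1, may be repeat spots of 1 probe and are not independent. Of these genes, 6 had a row in the promoter table (Cul4a, Hnrnpab, Huwe1, Mki67, Nova1 and Smpd4), and the motif letters shown above for Kel were in none of those windows.

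Other genes of heme synthesis could be followed only in part, since 5 of 18 listed genes were on the arrays, Fech included. Averages here and in the lists that follow are log2 ratios of the limma fit over the 3 groups, read as castrated over sham unless another reading is named. Neither feature of Ppox, protoporphyrinogen oxidase, which makes the substrate of Fech, passed in the average (-0.10 and -0.099, limma adjusted p = 0.428 and 0.694). On the Cy5 layout alone feature 322 of Ppox averaged -0.28 and feature 9546 averaged -0.24, and their r with Kel was 0.77 and 0.78. Urod, an earlier enzyme of the pathway, averaged -0.011, Clpx, the mitochondrial unfoldase that acts on the first enzyme of the pathway, -0.018, and Pgrmc1, a heme-binding membrane protein, 0.031. Of these 5 features tested besides Fech, 0 passed in either direction, and their median was -0.018 against -0.0040 over all features tested. The channel reading gave a median of -0.13, against -0.0058 over all features. Like Kel, Clpx had its Cy3 layout wholly above its Cy5 layout.

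Iron supply was read by 15 features of 8 genes, of which 0 passed in the average. The 5 features of Tfrc, the transferrin receptor through which erythroid cells take up iron, tracked Kel with r of 0.70 to 0.88 and Fech with r of 0.64 to 0.86. Some of these features may be repeat spots of 1 probe, so they are not 5 independent readings. Their median log2 ratio was 0.24, -0.01 and -0.85 in old marrow, -0.21, -0.43 and 0.27 in young bone and 0.07, 0.54 and -0.29 in young marrow, replicates 1 to 3 each. As deposited, the lowest array was old marrow replicate 3, where Kel and Fech were also far down, and the highest was young marrow replicate 2, where both were at their highest. Channel-read, young marrow replicate 2 was among the low arrays, with -0.54 for Tfrc, -0.39 for Kel and -0.59 for Fech. Glrx5, a glutaredoxin of the iron-sulfur cluster pathway, averaged -0.14 (SE 0.069, limma adjusted p = 0.377) and had r of 0.86 with Kel and 0.91 with Fech. Nfs1, the cysteine desulfurase of that pathway, averaged -0.11 on feature 9271 and Ftl1, the ferritin light chain, -0.17, neither past the threshold. Other listed features did not track Kel, with r of 0.07 for feature 9271 of Nfs1, 0.10 for Aco1, -0.32 for Ireb2 and -0.32 for feature 1123 of Isca2. The last 3 had r with Fech of -0.14, -0.20 and -0.10. Over the 15 features the median r was 0.47 with Kel and 0.565 with Fech. The median of the 15 features, 5 of them of Tfrc, was -0.013 in the average, against -0.0040 over all features. On the Cy5 layout alone it was -0.15, against -0.015 over all features there.

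Globin ratios had signs of their own. Hbb-b1, an adult beta globin, had log2 ratios of 0.32, -0.04 and 0.16 in old marrow, 0.43, 0.05 and 0.05 in young bone and 0.20, -0.08 and 0.30 in young marrow. It averaged 0.11 (SE 0.059, limma adjusted p = 0.418), and its r with Kel was -0.51 and with Fech -0.36. On the Cy5 layout alone, where castration and dye cannot be told apart, it averaged 0.24, opposite in sign to Kel and Fech. Its dye term, 0.13 (limma unadjusted p = 0.0465), was also opposite in sign to theirs. Channel-read, Hbb-b1 averaged 0.13 (limma adjusted p = 0.893). The embryonic globins Hbb-bh1 and Hba-x averaged 0.068 and 0.086, and 0 of 3 globin features passed. Of 16 listed erythroid markers Hbb-b1 was the only one measured, so the erythroid content of the specimens was checked by this gene alone.

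Of 30 listed membrane, skeleton and blood group genes 9 were on the arrays, Kel included, and of the 10 features tested besides Kel 0 passed in the average. The 3 with the smallest p were Ank1 (ankyrin, which ties the skeleton to the membrane) at -0.19, Icam4 (the LW blood group protein) at -0.13 and Art4 (the Dombrock blood group protein) at -0.086. Dmtn (dematin, an actin-bundling skeleton protein) had an r with Kel of 0.83, Art4 0.82 and Slc14a1 (the Kidd blood group urea transporter) 0.80. Add3 had 0.24 and 0.36, Ank1 -0.18 and Bcam -0.41, and the median r with Kel of the 10 features was 0.54. The median of the list was -0.036 in the average, against -0.0040 over all features. On the Cy5 layout alone it was -0.17, against -0.015 over all features. In the family of Kel itself, the neprilysin gene Mme (3 features), the endothelin-converting enzyme Ece1 and the endothelin receptor Ednrb gave 5 features, of which 0 passed. Their averages lay between -0.092 for feature 11155 of Mme and 0.098 for Ece1.

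Among erythroid transcription factors 1 of 9 features passed in the average and rose, where 4.04% of all features tested passed. Cbfa2t3, a corepressor of the complex around Tal1, averaged 0.29 (SE 0.061, limma adjusted p = 0.0234) and was above 0 on 8 of 9 arrays as deposited. Channel-read, it averaged -0.030 and did not pass. Tal1, a regulator of blood stem and erythroid cells, averaged -0.16 (limma adjusted p = 0.331) and feature 567 of Bcl11a, a globin repressor, 0.14. The r of Cbfa2t3 was -0.14 with Kel and 0.19 with Fech. Its call ended when any of 6 of the 9 arrays was left out (limma adjusted p up to 0.19, without old marrow replicate 2) and on the Cy5 layout alone (0.26, limma adjusted p = 0.147).

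In erythropoietin and stem cell factor signalling 1 of 12 features passed in the average and fell, against 4.04% of all features tested. A second feature of that gene pointed the other way. Feature 10146 of Kitl, the stem cell factor, averaged -0.36 (SE 0.083, limma adjusted p = 0.039), while feature 9536 of Kitl averaged 0.13 (limma adjusted p = 0.48). Without any of 5 of the 9 arrays the first was past the threshold no longer (limma adjusted p up to 0.215, without old marrow replicate 2), and channel-read it was 0.15. Cish, a feedback inhibitor of cytokine receptors including that of erythropoietin, had log2 ratios of -0.61, -0.52 and -1.43 in old marrow, -0.04, 0.12 and 0.24 in young bone and -0.12, -0.10 and -0.25 in young marrow. It fell by 0.81 in old marrow (SE 0.14, limma adjusted p = 0.0316, where 0.732% of features passed) and did not pass in the average, at -0.26. Leaving out any of 7 of the 9 arrays ended this call (limma adjusted p up to 0.253, without old marrow replicate 2), at values of -0.98 to -0.57 on the log2 scale. Jak2, the kinase of the erythropoietin receptor, had 7 features with averages of -0.037 to 0.074, and 3 of them had the Cy3 layout wholly above the Cy5 layout.

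In heme breakdown and export 1 of 4 features passed in the average, against 4.04% of all features tested. Bach1, a heme-sensing repressor, fell by 0.29 (SE 0.070, limma adjusted p = 0.0446) and was below 0 on 9 of 9 arrays. Cd163, the hemoglobin scavenger receptor of macrophages, rose in old marrow by 0.50 (SE 0.090, limma adjusted p = 0.0362, where 0.732% of features passed). It averaged 0.20 over the groups (limma adjusted p = 0.0681). The call of Bach1 ended without any of 7 of the 9 arrays (limma adjusted p up to 0.258, without young marrow replicate 2) and that of Cd163 without any of 8 (limma adjusted p up to 0.452, without old marrow replicate 2). Channel-read, Bach1 averaged -0.018 and Cd163 was -0.0042 in old marrow. Blvra, biliverdin reductase, averaged -0.17. Red cell enzymes gave 9 features, of which 0 passed, and among them Bpgm, which makes the red cell's 2,3-bisphosphoglycerate, averaged 0.26, Pgk1, a glycolytic kinase, -0.26 and feature 2300 of Prdx2, a red cell peroxidase, -0.13. At an unadjusted p under 0.05 in the average of the limma fit stood 3 of the 4 features of heme breakdown and export, 2 of the 9 red cell enzyme features, 2 of the 12 of erythropoietin and stem cell factor signalling, 1 of the 9 transcription factor features and 0 of the heme synthesis, iron, globin, membrane and Kell family features, against 16.2% of all features tested. None of the features of these lists passed under the channel reading.

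Over all 9 lists, 69 features of 47 genes had a value on every array. The Cy3 layout lay wholly above the Cy5 layout, as for Kel, in 4 of them (5.8%, against 2.05% of all features), of which 3 were features of Jak2 and the other that of Clpx, so 2 of the 47 genes. The median r of the 69 features, of the deposited ratios, was 0.38 with Kel and 0.39 with Fech, against -0.015 and 0.012 over all features. Features of the same gene, such as those of Tfrc and Jak2, may be repeat spots, so this median is not over independent readings.

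**Figure D4:**
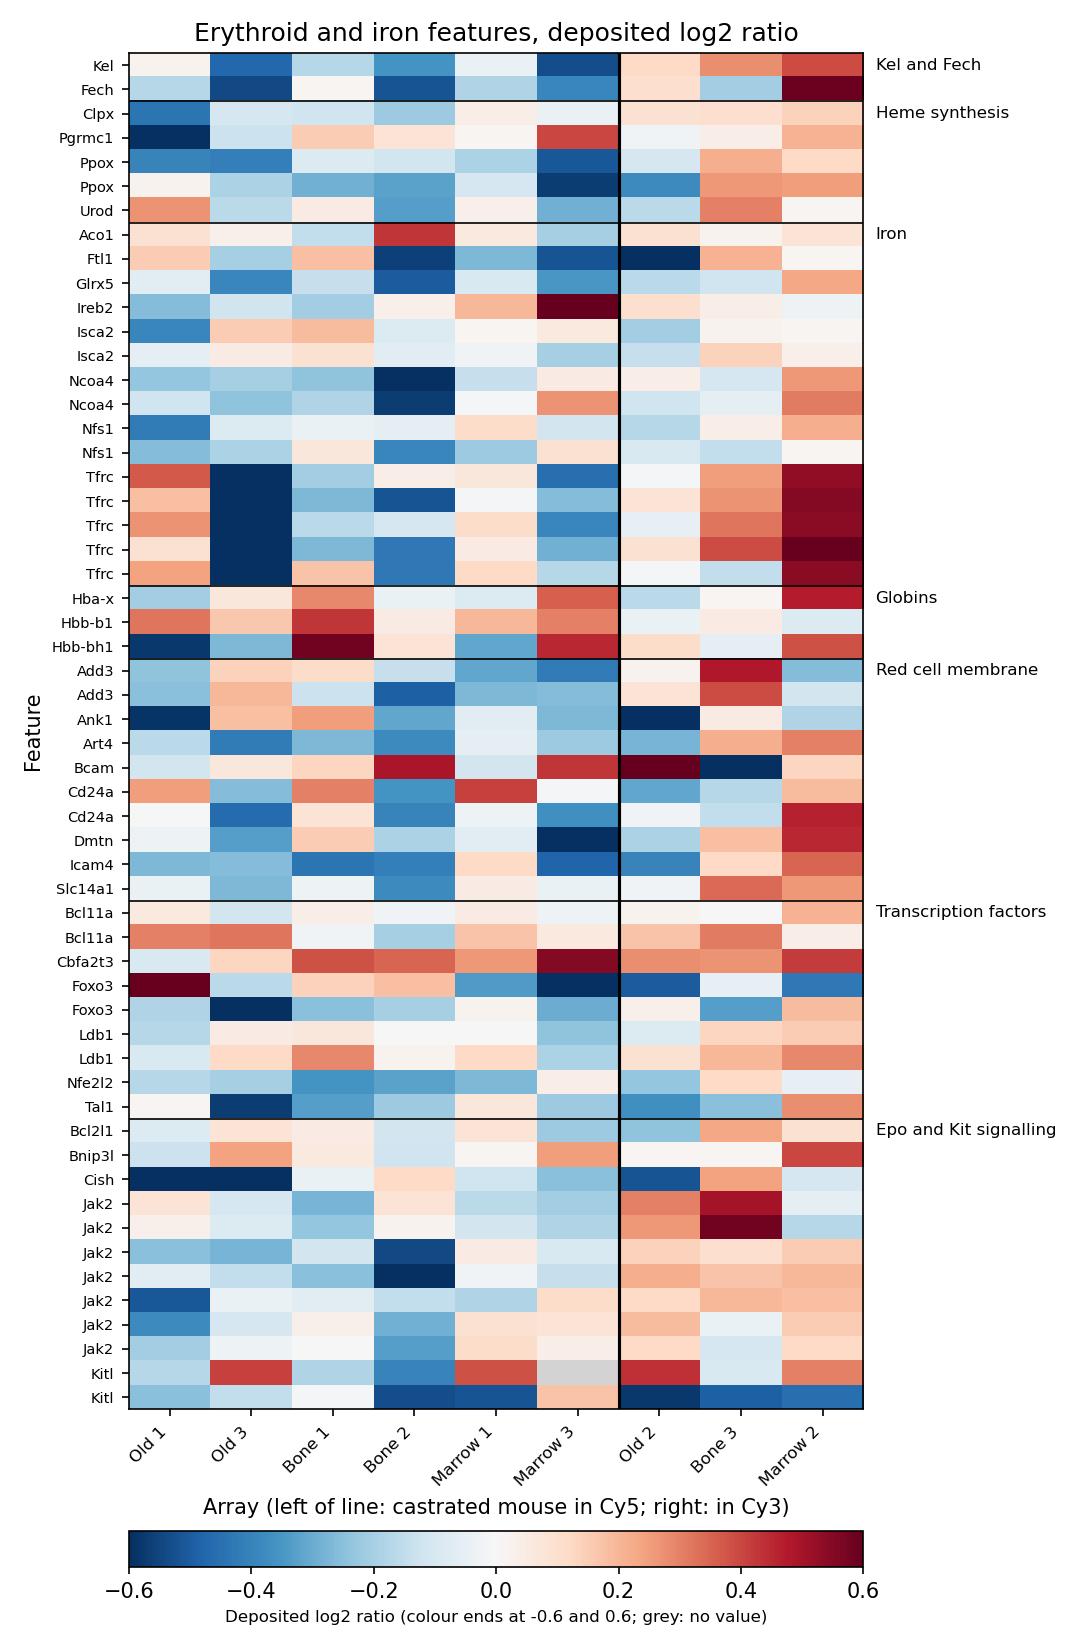
Deposited log2 ratio of Kel, Fech and the listed heme, iron, globin, membrane, transcription factor and signalling features (rows) on each array (columns), in colours that end at -0.6 and 0.6, with arrays of the Cy5 layout left of the black line and those of the Cy3 layout right of it. The Tfrc rows share the dark blue of old marrow 3 and the dark red of young marrow 2 with Kel and Fech, while the row of Hbb-b1 is red on all 6 columns left of the line.

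Some markers of other cell types kept a constant sign over both layouts. The median log2 ratio of 6 B lymphocyte features was above 0 on all 9 arrays, between 0.395 and 0.82, and that of 6 granulocyte features was below 0 on all 9, between -0.675 and -0.11. In the average read as castrated over sham, 5 of the 6 B lymphocyte features passed upward and 6 of the 6 granulocyte features passed downward, and under the channel reading 0 of either passed. Their median r with Kel was -0.15 for B lymphocyte and -0.26 for granulocyte features, and with Fech -0.038 and -0.14. Megakaryocyte features had a median of 0.0 to 0.62 on the arrays (3 of 5 passed upward in the average), monocyte and macrophage features one of -0.535 to 0.055 (3 of 6 passed downward), adipocyte features one of 0.21 to 1.2 (3 of 3 passed upward) and osteoblast features one of -0.33 to 1.74 (0 of 3 passed, with 3 at an unadjusted p under 0.05 in limma). The 8 skeletal muscle features ranged in median from -1.09 on young bone replicate 1 to 0.66 on old marrow replicate 1, with 0 passing. The single T and NK cell feature averaged -0.14 and did not pass. The part of these cells in the ratios of Kel and Fech was not tested, and in whole specimens fewer cells of a type and less RNA per cell cannot be told apart.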

How the data were processed

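The authors hybridised Cy3- and Cy5-labelled aminoallyl cDNA from pulverised bone RNA on dual-channel arrays, per the labels' protocols. They deposited 1 log ratio per feature and array, read here as log2. The log base, direction, background treatment and normalization are not given in the sources used here. Intensities were not used, which leaves signal over background unknown, and precision is limited by how few arrays there are. Of 11552 features, 8050 carried 1 gene symbol, 672 several and 2830 none, and 7880 symbols were updated by gene ID. Arrays held 8290 to 10995 values. Runs of genes recur in the same order along the feature numbers, such as Huwe1, Ndrg2 and Mrps35 at 141, 142 and 144 and again at 333, 334 and 336. Features of 1 gene may therefore be repeat spots of 1 probe, and they are not independent readings.

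Features with values on at least 2 arrays of each group and at least 1 array with the castrated mouse in Cy3 were tested (8885). A limma 3.58.1 fit (R 4.3.3) over the 9 arrays had a coefficient for each group plus a shared dye term, used exact standard errors of contrasts and Benjamini-Hochberg adjustment over all features tested, at a threshold of 0.05, and was tested on simulated data. P-values measure the spread between arrays and treat the 9 arrays as independent mouse pairs. Whether young bone and young marrow share animals is not stated. If they do, tests over the 9 arrays rest on fewer independent pairs. Exact permutation and sign-flip tests went through every arrangement with numpy 2.4.6, without regard to group. The r and rho of Kel with Fech came from scipy 1.17.1. Deviations of same-numbered arrays correlated at 0.60, 0.27 and 0.30 between old and young marrow. There same-numbered arrays also share the dye layout, so a dye effect could raise these correlations. For number 2, the Cy3 layout, number and layout cannot be told apart. The best match of an array had its own number in 8 of 18 array and other-group pairs, so pairing by number is not shown. Correlations with young bone were -0.37 to 0.38, which gives no pairing. Blocked values stand with the alternatives.

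Kel, Fech and the gene lists were chosen with earlier results of these data known. Named from each list were all features past the threshold and the 3 with the smallest p in the average, and for likeness the 5 features with the highest r. Tfrc, Jak2, Dmtn, Slc14a1, Clpx and Urod were added after their values were seen, as were the exact layout test, the sign-flip tests of the other readings and the relation of Kel to Fech. Alternatives were no dye term, the Cy5 layout alone, the channel reading, a replicate block (also on the old and young marrow arrays alone, added after the data were seen), median centring with and without scaling, features with all 9 values, array weights and leaving out each array.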

Additional observations from a re-analysis of the deposited data

How the results depend on the processing

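No value of Kel or Fech passed the adjusted threshold under any alternative run (0 of 318 values, lowest limma adjusted p 0.138). The values below changed sign, some also in size, and the cause was not tested except where the turned sign follows from the reading. The average of Kel (0.0025) was -0.26 under the channel reading and on the Cy5 layout alone and -0.084 without the dye term and as a plain mean. In young bone it was -0.27, -0.27 and -0.083 under the channel reading, the Cy5 layout and no dye term, and in young marrow -0.32, -0.29 and -0.060. In old marrow it was 0.0063 with a replicate block and 0.020 after median centring. Kel differences on the channel reading and the Cy5 layout were 0.13 and 0.060 for old minus young marrow, 0.080 and 0.040 for old marrow minus young bone and 0.050 and 0.020 for young bone minus young marrow, and its dye term was 0.0025 on the channel reading. With array weights, Fech was 0.025 in the average, 0.027 in young bone and -0.18 for old marrow minus young bone, the last also -0.17 on the channel reading, -0.10 on the Cy5 layout and -0.019 after scaling. Fech in young marrow was -0.36 on the channel reading and -0.29 on the Cy5 layout, and minus it young bone was 0.29 and 0.030, and old marrow 0.12 on the channel reading.

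Leaving out each array in turn, Kel ranged from -0.039 to 0.047 in the average, -0.040 to 0.055 in young bone, -0.070 to 0.175 in young marrow, -0.175 to 0.080 in old marrow, -0.18 to 0.082 for young bone minus young marrow, -0.22 to 0.056 for old minus young marrow, -0.19 to 0.075 for old marrow minus young bone and -0.31 to -0.22 in the dye term. Fech ranged from -0.17 to 0.034, -0.365 to 0.078, -0.16 to 0.205, -0.22 to -0.035, -0.47 to -0.038, -0.34 to -0.0017, -0.17 to 0.26 and -0.33 to -0.125 in the same order. The channel average stayed at -0.30 to -0.22 for Kel and -0.31 to -0.12 for Fech, the last without young marrow replicate 2.

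The 5 calls among listed genes were less stable. On the channel reading Cbfa2t3 was -0.030, Kitl feature 10146 was 0.15, Bach1 -0.018, Cish -0.42 in old marrow and Cd163 -0.0042 there, none past the threshold. All 5 were also lost on the Cy5 layout alone and without 5 to 8 of the single arrays, with no sign turned by leaving out an array. Median centring ended the calls of Kitl (limma adjusted p 0.0512) and Cish (0.0585), scaling those and that of Cd163 (0.0569), and dropping the dye term that of Kitl (0.0555).

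Paired by number on the old and young marrow arrays alone, old minus young marrow was -0.050 for Kel (SE 0.12, limma adjusted p 0.816) and -0.21 for Fech (SE 0.13, limma adjusted p 0.34), with 0 of 8679 features past the threshold (2174 at an unadjusted p under 0.05), so no call of this comparison changed. With a replicate block over all 9 arrays the average was 0.032 for Kel and -0.052 for Fech, and of the calls named only that of Bach1 was lost (limma adjusted p 0.0531). Numbers of features past the threshold moved by over 1.5 times. The average had 359, but 86 on the Cy5 layout, 1093 with array weights, 0 on the channel reading and 96 to 574 without 1 array. Young bone had 23 (50 without the dye term, 1 on the Cy5 layout, 52 with the block, 1 after scaling, 76 with weights, 0 on the channel reading, 1 to 80 without 1 array). Young marrow had 75 (3 on the Cy5 layout, 119 with the block, 160 after scaling, 1617 with weights, 0 on the channel reading, 0 to 138 without 1 array) and old marrow 65 (13 on the Cy5 layout, 14 after scaling, 394 with weights, 0 on the channel reading, 10 to 1332 without 1 array). Old minus young marrow had 0 (583 with weights, 0 to 885 without 1 array), old marrow minus young bone 1 (0 to 31 without 1 array), young bone minus young marrow 0 (5 with weights) and the dye term 0 (231 on the channel reading).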
